A study of Mus musculus with 6 samples.

Results

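Imprinted gene clusters were followed through a contact map of chromosomes in hybrid mouse cells. The members were 10 bins of 1 Mb, each chosen by a fixed position on the mouse build mm9 that holds a named imprinted gene. They were H19, Kcnq1ot1, Peg3, Snrpn, Meg3, Igf2r, Grb10, Gnas, Mest and Nnat, 10 of the 2666 bins in the position key. The rule uses positions and no measured value. The assay was Hi-C, which fixes chromatin, cuts its DNA, joins ends that were close in the nucleus and reads both sides of each junction. The cells were embryonic fibroblasts of a 129xCast hybrid background, all in 1 untreated group, and HindIII was the cutting enzyme. The labels name 2 embryos with 3 technical replicates each, 6 samples in all, and the analysed values are 1 pooled map. The labels give no age, no genotype beyond the cross and no direction of the cross, so neither allele could be called maternal or paternal. No RNA was measured here, so the fibroblast label could not be set against marker genes.

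An imprinted gene is transcribed mainly from the copy inherited from the mother or mainly from the copy inherited from the father. Most such genes lie in clusters under a control region whose DNA is methylated on the copy from 1 parent, and long noncoding RNAs or insulator proteins then act on that chromosome alone. Contacts between the maternal and the paternal copies of imprinted regions have been a subject of study in several of these clusters. The name of the deposited map carries codes that fit pairs of unlike alleles, a Cast end with a 129 end, although the labels do not state this. If that reading holds, a contact within a bin or within a chromosome joins homologs. A contact between chromosomes would likewise join a Cast copy with a 129 copy, and pairs of like alleles would be missing from the map. The accuracy of the assignment of ends to alleles was not analysed here.

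The members classed as maternally expressed were H19, Meg3, Igf2r, Grb10 and Gnas. H19 is a long noncoding RNA beside the growth factor gene Igf2, and Meg3 is a long noncoding RNA of the Dlk1 cluster. Igf2r is the receptor that clears Igf2, Grb10 is an adaptor that restrains growth factor signalling, and the Gnas locus encodes the stimulatory G protein alpha subunit. Grb10 is transcribed from the paternal copy in neurons, and the Gnas locus also makes paternal transcripts. The maternal and paternal classes follow textbook knowledge of a named transcript, and parental expression was not measured in these cells. The paternally expressed members were Kcnq1ot1, a long noncoding RNA that silences its neighbours, Peg3, a zinc finger protein, Snrpn, a splicing protein of the Prader-Willi region, Mest, a hydrolase family member, and Nnat, a small membrane protein known as neuronatin.

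The sequences below show what lies at the starts of the chromosome 7 members, since most same-bin contacts described further on fell in those bins. They come from RefSeq on GRCm38.p6, another build than the bins, and their positions were not converted. RefSeq promoter windows, 250 bases before to 50 after a start, were matched for 9 of the 10 loci, with 19 windows in all. H19 is named only. The capitals mark each CG, the dinucleotide that is methylated in mammals.
Peg3, chr7:6730370-6730669, minus strand: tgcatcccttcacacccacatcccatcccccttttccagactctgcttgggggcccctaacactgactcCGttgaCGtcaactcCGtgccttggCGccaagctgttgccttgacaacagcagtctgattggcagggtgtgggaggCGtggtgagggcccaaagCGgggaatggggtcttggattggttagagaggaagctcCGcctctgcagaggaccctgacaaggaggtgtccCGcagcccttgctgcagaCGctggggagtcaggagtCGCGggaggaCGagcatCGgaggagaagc
Kcnq1ot1, chr7:143296498-143296797, minus strand: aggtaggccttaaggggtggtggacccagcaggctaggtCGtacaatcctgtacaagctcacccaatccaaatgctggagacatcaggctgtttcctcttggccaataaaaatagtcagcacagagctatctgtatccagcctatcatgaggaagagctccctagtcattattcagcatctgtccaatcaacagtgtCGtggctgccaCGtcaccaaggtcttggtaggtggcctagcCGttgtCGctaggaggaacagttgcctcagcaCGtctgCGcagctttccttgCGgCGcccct
Snrpn, chr7:60005150-60005449, minus strand: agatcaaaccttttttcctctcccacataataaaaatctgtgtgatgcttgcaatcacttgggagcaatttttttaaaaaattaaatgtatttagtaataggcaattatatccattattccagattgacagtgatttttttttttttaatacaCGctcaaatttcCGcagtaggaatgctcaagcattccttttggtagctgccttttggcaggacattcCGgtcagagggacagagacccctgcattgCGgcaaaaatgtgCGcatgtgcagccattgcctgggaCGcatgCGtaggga
The Peg3 window holds 13 CG and that of Kcnq1ot1 9. The Snrpn window shown, 1 of 4 for this gene, holds 7, and the other 3 hold 4, 3 and 2. Over the 19 windows of the loci the median was 13, with a range of 1 to 45, against a median of 7 over all 32851 windows of the same length. Genes with several starts enter more than once, and some windows of Mest and of Gnas overlap, so these are not 19 separate promoters. The letters AAGCTT, the site that HindIII cuts and its own reverse complement, were in 0 of the 19 windows and in 7.45% of all windows. This says only that these letters are not in these windows.

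The H19 transcript also holds the hairpin of miR-675, whose mature arms lie on the minus strand of the same build. They are shown because H19 had the most same-bin contacts, and the capitals mark the seed, bases 2 to 8, which directs a miRNA to its targets.
mmu-miR-675-5p, chr7:142577112-142577133: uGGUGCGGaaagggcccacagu
mmu-miR-675-3p, chr7:142577078-142577099: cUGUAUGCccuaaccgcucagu
The arms have different seeds.

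Counts of contacts were recovered from the balanced values, and a bin was kept where it met at least 50% of the median of 1087 bins on other chromosomes. All 10 loci passed, among 2341 kept bins, of which 2231 were autosomal. Trans contacts are those with other chromosomes. They ranged from 846 at Snrpn to 1667 at Meg3, with a median of 1576 over kept autosomal bins. Snrpn, Mest with 978 and Nnat with 1017 were in the lowest 10% of kept autosomal bins by trans contacts. Each locus was read against an expected count, the product of bin factors fitted to trans totals, so that a ratio of 1 means contact as frequent as between bins of different chromosomes. Intervals are exact 95% Poisson intervals. They cover counting error only, since copies made by PCR are not independent molecules and 1 map has no replicates.

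Within the bins themselves the 10 loci held 19 contacts, and 18 of these lay in the 4 bins of chromosome 7. H19 had 10 same-bin contacts, Peg3 had 4, and Kcnq1ot1 and Snrpn had 2 each. Nnat on chromosome 2 had 1, and Meg3, Igf2r, Grb10, Gnas and Mest had 0. Thus 5 of 10 loci had at least 1 contact, against 57.2% of all kept bins, and a count of 0 was also the value of 42.4% of kept autosomal bins.

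The H19 bin, chr7:149000001-150000000, which also holds Igf2, was the clearest member. Its 10 contacts stood against 0.346 expected, a ratio of 28.9 (13.8 to 53.1), with an adjusted p of 8.09e-10 in an exact Poisson test adjusted by Benjamini-Hochberg over all kept bins. Summed over kept autosomal bins, same-bin contact was 3.26 (3.14 to 3.38) times the trans expectation, although 42.4% of those bins had 0 contacts. Against that autosomal mean, an expectation added after the data were seen, H19 had 8.86 (4.25 to 16.3) times the expected 1.13 contacts, with an adjusted p of 5.38e-05 in the same exact test. This exact test takes in counting error alone, while same-bin counts of kept autosomal bins had a variance 3.10 times their mean. Among 763 kept autosomal bins within 10% of H19 in trans contacts, 4 had at least 10 same-bin contacts, and their mean was 1.06. H19 was not the highest bin of the map. By count, 26 of the 2231 kept autosomal bins had at least 10, led by 24 contacts at chr13:74000001-75000000, and by ratio H19 ranked 48.

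Peg3, at chr7:6000001-7000000 toward the low-coordinate end of chromosome 7, was the other locus past the threshold. Its 4 contacts against 0.354 expected gave a ratio of 11.3 (3.08 to 29.0), with an adjusted p of 0.0204 in the exact Poisson test. Against the autosomal mean the ratio was 3.47 (0.946 to 8.89) and the adjusted p of the exact test was 1. With the full product of bin factors as the trans expectation, the ratio was 5.65 (1.54 to 14.5) and the adjusted p of the exact test 0.247. The call for Peg3 was therefore lost under both of these expectations. Of kept autosomal bins, 5.74% had at least 4 contacts, as did 36 of 794 within 10% of Peg3 in trans contacts.

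Snrpn had a ratio of 18.8 (2.27 to 67.9) from its 2 contacts, where 0.106 were expected. Its adjusted p was 0.134 in the exact Poisson test, so it did not pass. Its ratio was above that of 96.8% of kept autosomal bins but of 85.9% of the 92 bins within 10% of it in trans contacts, of which 15 had at least 2 contacts. For Nnat these shares were 84.9% and 66.3%. Kcnq1ot1 had 4.96 (0.601 to 17.9) and Nnat 6.35 (0.161 to 35.4), both with intervals that include 1. For the loci with 0 contacts the intervals reached up to 9.10 at Meg3, 9.31 at Grb10, 11.6 at Gnas, 13.1 at Igf2r and 25.5 at Mest. A same-bin ratio at the autosomal value of 3.26 therefore lay within the interval of each of these 5 loci at this depth.

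Intervals lay above 1 at 3 of the 10 loci, where 13.3% of all kept bins had one. The 2 loci past the adjusted threshold compare with 5.81% of all kept bins, and the 1 locus past it against the autosomal mean, H19, compares with 2.78%. Against that mean, 1 locus, H19, also had an interval above 1, where 4.66% of kept bins did. The median ratio was 2.48 over the 10 loci and 2.10 over kept autosomal bins. Summed over the loci the ratio was 6.52 (3.93 to 10.2), and without H19 it was 3.51 (1.60 to 6.66), close to the autosomal 3.26. Chromosome 7 as a whole was also above the autosomes, with 5.54 (4.87 to 6.27) over its 128 kept bins. Of those bins, 29 had an interval above 1, 21 passed the adjusted threshold and 13 passed it against the autosomal mean. Among them, chr7:147000001-148000000 held 12 contacts, more than H19, at a ratio of 21.6. The 4 imprinted bins of chromosome 7 summed to 14.9 (8.82 to 23.5). This grouping was made after the counts were seen, and therefore has no test. The 5 maternally expressed loci summed to 5.73 (2.75 to 10.5), all 10 contacts being at H19, and the 5 paternally expressed loci to 7.72 (3.53 to 14.7), with overlapping intervals.

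**Figure D1:**
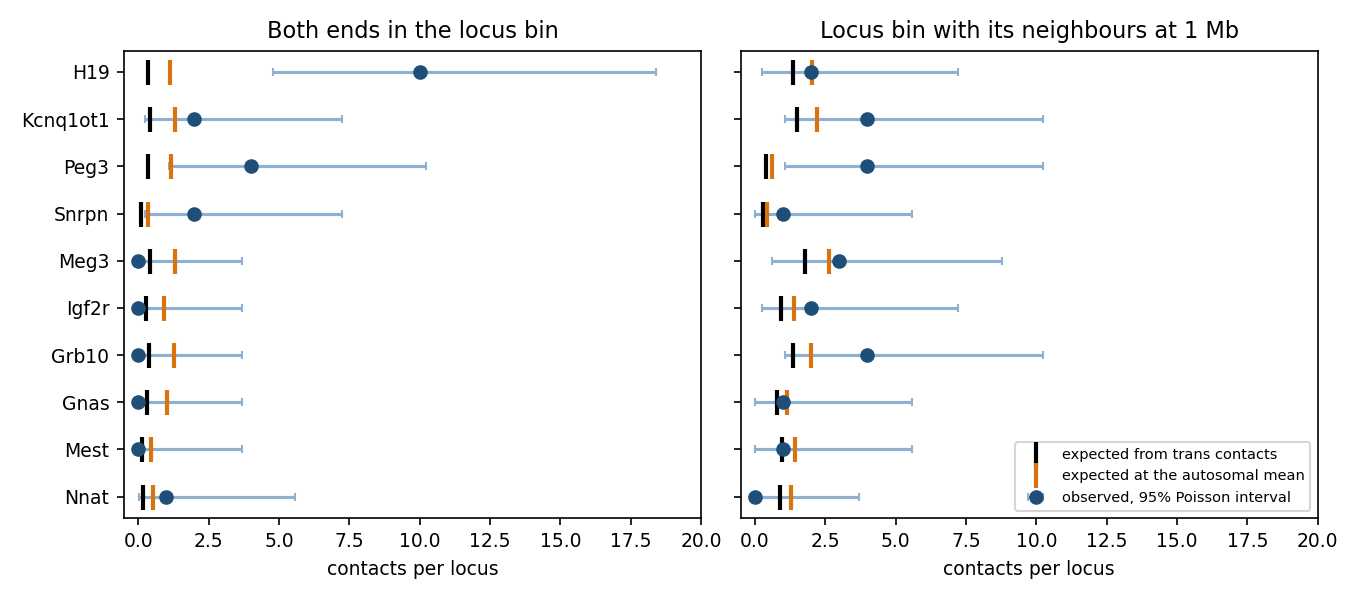
Contacts per imprinted locus within its own 1 Mb bin (left) and with its neighbours at 1 Mb (right), as points with exact 95% Poisson intervals; black marks are the counts expected from trans contacts and orange marks those expected at the autosomal mean. Within the bin only the interval of H19, with 10 contacts, lies wholly above the orange mark.

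**Figure D2:**
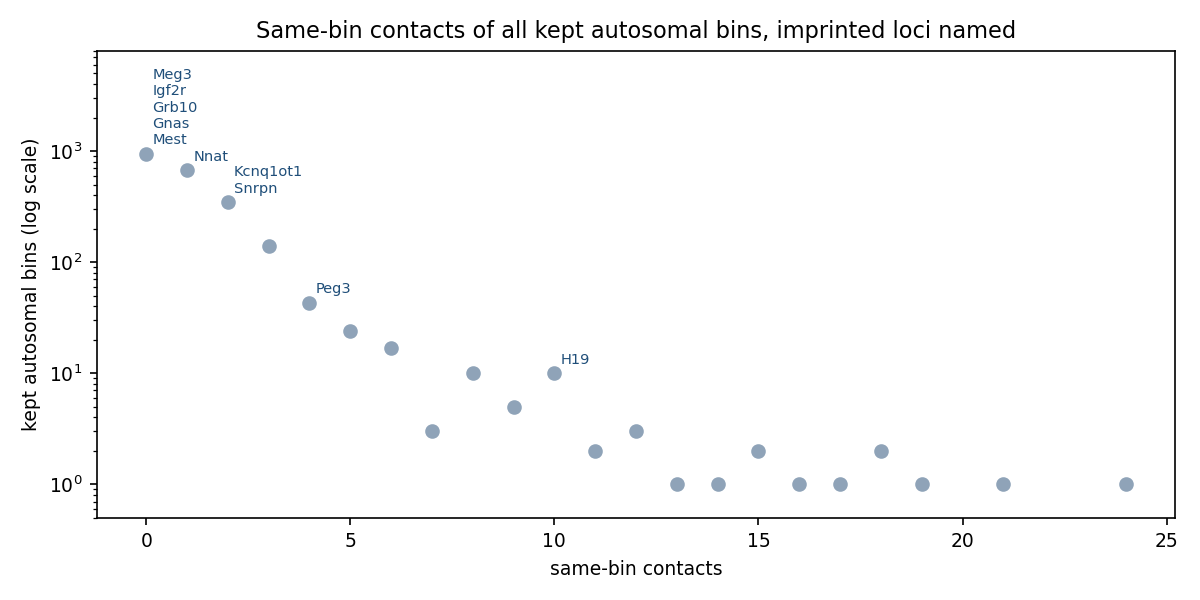
Number of kept autosomal bins (log axis) at each count of same-bin contacts, with the imprinted loci named at their own counts. Meg3, Igf2r, Grb10, Gnas and Mest sit with the 946 bins at 0, and H19 sits at 10 in the sparse tail that ends at 24.

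One bin away, the excess at H19 was no longer seen. From 3 Mb before to 2 Mb after, the H19 bin met each neighbouring bin with 1 contact, against 10 within itself. With both neighbours at 1 Mb the ratio was 1.46 (0.176 to 5.26). The Kcnq1ot1 bin is one of these neighbours, so the bins of the Igf2 and H19 cluster and of the Kcnq1 cluster shared 1 contact where 0.747 was expected. On its other side Kcnq1ot1 had 3 contacts against 0.766, and with both neighbours it had 4, a ratio of 2.64 (0.720 to 6.77).

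Peg3 had the highest adjacent ratio of the members. Its 4 contacts with the bin before it stood against 0.414 expected, a ratio of 9.65 (2.63 to 24.7) with an adjusted p of 0.0779 in the exact Poisson test. Its bin had only 1 kept neighbour, because the bin after it was poorly covered and held 1 contact with it. With that bin admitted, by leaving out the coverage filter, the ratio was 10.1 (3.29 to 23.7) and the adjusted p of the exact test was 0.0167. Peg3 thus crossed the threshold only without the filter.

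The remaining loci had 0 to 4 contacts with their neighbours and intervals that include 1. Grb10 had 4 contacts and 2.94 (0.801 to 7.53), Meg3 had 3 and 1.68 (0.346 to 4.90), and Igf2r had 2 and 2.12 (0.257 to 7.66). Snrpn, Gnas and Mest had 1 each, with ratios of 3.36, 1.29 and 1.04, where Snrpn and Gnas had 1 kept neighbour. Nnat had 0 contacts, with an upper limit of 4.16.

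By the exact Poisson test 0 of 10 loci passed the adjusted threshold for adjacent contact, where 1.76% of all kept bins did. At an unadjusted p under 0.05, 1 passed, Peg3, which was also the 1 locus with an interval above 1, against 7.45% of all kept bins. Set against the autosomal mean of adjacent contact, Peg3 had 6.56 (1.79 to 16.8), the 1 interval above 1 among the loci, where 3.98% of kept bins had one. At least 1 adjacent contact was found at 9 of 10 loci and in 80.4% of kept bins. Summed over the loci the adjacent ratio was 2.19 (1.36 to 3.35), and without Peg3 1.86 (1.08 to 2.97). The interval of the sum includes the value for autosomal bins 1 Mb apart, 1.47 (1.41 to 1.53).

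Farther along the chromosome the loci followed the autosomes. Summed over the 10 loci, the ratio was 1.06 (0.669 to 1.58) at 2 to 3 Mb, 0.935 (0.705 to 1.22) at 4 to 9 Mb and 1.04 (0.890 to 1.20) at 20 to 49 Mb. The autosomal values in those bands were 1.13, 1.07 and 1.03. From 10 to 19 Mb the loci summed to 1.27 (1.02 to 1.56, 88 contacts), where the autosomes had 1.06 (1.04 to 1.07). The intervals of the loci and the autosomes overlap in every band, and no test was made.

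Beyond 1 Mb, the single-locus intervals that left out 1 were all on chromosome 7, at Peg3, H19 and Snrpn. Peg3 had 3.23 (1.18 to 7.02) times the expected contacts at 10 to 19 Mb, from 6 contacts, and 0.652 (0.476 to 0.873) at 50 Mb and over. H19, at the other end of that chromosome, had 1.38 (1.07 to 1.75) at 50 Mb and over, from 68 contacts. Snrpn, in the middle, had 1.87 (1.04 to 3.08) at 10 to 19 Mb and 1.55 (1.02 to 2.26) at 50 Mb and over, and 1.34 (1.04 to 1.72) over the whole chromosome. The Peg3 and Snrpn bins, 61 Mb apart, shared 3 contacts where 0.388 was expected, a ratio of 7.73 (1.59 to 22.6). These bands are descriptions without a test, and each rests on at most 68 contacts. They were picked from all bands of the loci, and the share of all kept bins with such intervals was not computed.

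**Figure D3:**
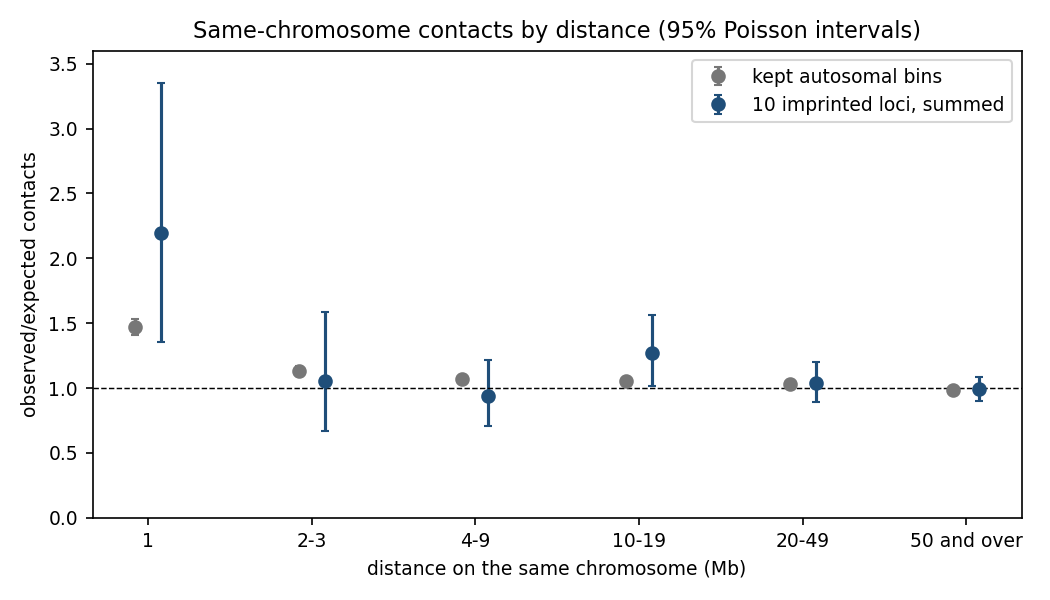
Observed/expected same-chromosome contacts by distance in Mb, for the 10 imprinted loci summed (blue) and for kept autosomal bins (grey), with exact 95% Poisson intervals and a dashed line at 1. The loci have 2.19 at 1 Mb beside 1.47 for autosomal bins, and range from 0.935 to 1.27 from 2 Mb on, beside 0.987 to 1.13.

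Contacts among the loci address whether imprinted regions meet each other in the nucleus. Of the 45 pairs of loci, 38 lie on different chromosomes. These 38 pairs held 19 contacts where 21.1 were expected, a ratio of 0.898 (0.541 to 1.40). No excess or deficit of contact among imprinted loci was detectable, and an excess of up to 1.40 times lay within the interval. A contact was seen in 15 of the 38 pairs and none in 23, or 60.5%, against 52.7% of all trans pairs of kept bins.

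H19 and Meg3, both maternally expressed long noncoding RNA loci, had the most contacts, 3 against 0.750 expected, a ratio of 4.0 (0.825 to 11.7). The unadjusted p was 0.0405 in a 1-sided exact Poisson test and the adjusted p was 1 over 2594953 pairs. The receptor locus Igf2r had 2 contacts with Gnas, a ratio of 3.35 (0.405 to 12.1), and 2 with Nnat, a ratio of 4.75 (0.576 to 17.2). By the exact test 0 pairs passed the adjusted threshold, where 7.71e-05% of all trans pairs did. At most 0.809 contacts were expected in a pair, so only large excesses could be detected.

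Widening each locus by its kept neighbours at 1 Mb gave 165 contacts against 151 expected, a ratio of 1.10 (0.934 to 1.28). Peg3, Snrpn and Gnas were widened on 1 side only, and pairs of bins shared by H19 and Kcnq1ot1 entered this sum once. In this widened form 0 pairs had an interval above 1, and 1 had an interval below 1. That pair was Grb10 with Gnas, with 0 contacts where 4.27 were expected and an upper limit of 0.863. The share of all widened trans pairs with such an interval was not computed, so this count has no reference. H19 with Meg3 had 1.39 (0.669 to 2.56) when widened.

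Pairs of loci expressed from the same parental copy had a ratio of 1.14 (0.568 to 2.04), from 11 contacts in 17 pairs. Pairs expressed from opposite copies had 0.697 (0.301 to 1.37), from 8 contacts in 21 pairs. The former over the latter was 1.63 (0.598 to 4.68), so no difference was detectable. When widened it was 1.05 (0.780 to 1.42), but the widened classes share contacts, with 88 and 97 where all pairs held 165. The adjacent H19 and Kcnq1ot1 bins fall in both widened loci. This pulls the widened ratio toward 1, and its interval, made for separate counts, does not hold. On the same chromosome, 7 pairs held 7 contacts against 3.84 expected, a ratio of 1.82 (0.734 to 3.76), and 3 of these 7 contacts were those of Peg3 with Snrpn.

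**Figure D4:**
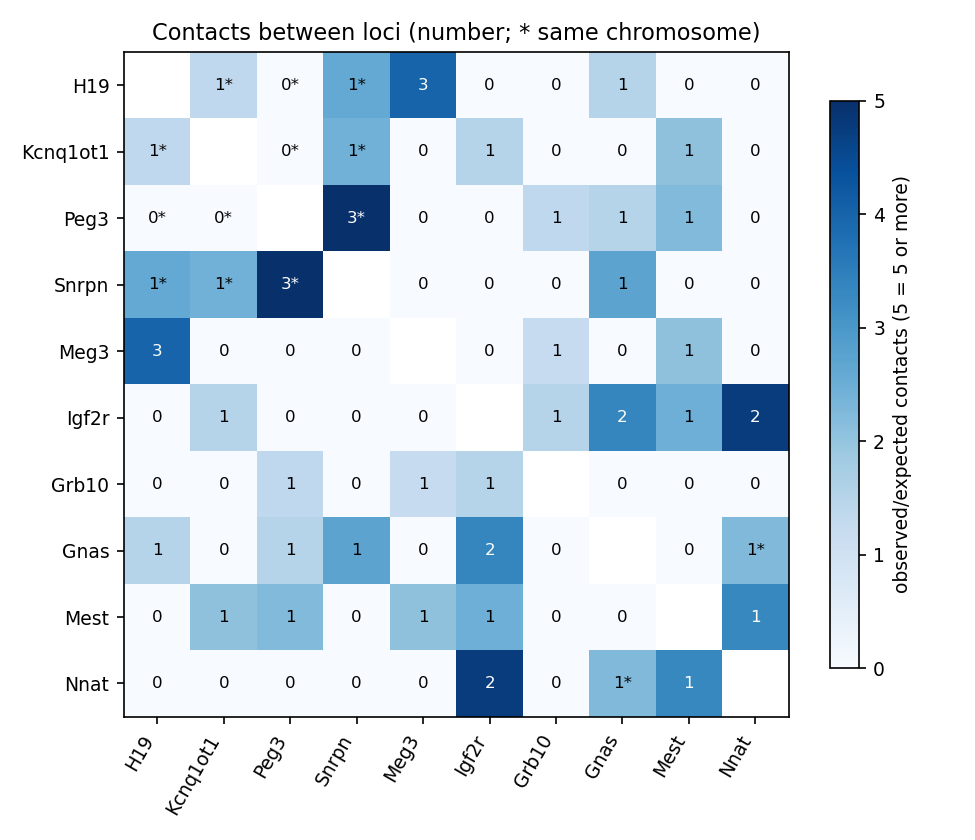
Contacts between each pair of imprinted loci, with the number of contacts printed in each cell, an asterisk for loci on the same chromosome, and colour for observed/expected contacts (5 stands for 5 or more). The darkest cells are Peg3 with Snrpn at 3 contacts on the same chromosome, Igf2r with Nnat at 2 and H19 with Meg3 at 3.

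Spread over partner chromosomes, the loci gave 190 combinations of a locus with another chromosome, with ratios from 0.652 to 1.49. By a 2-sided exact Poisson test 0 passed adjustment over all kept bins and chromosomes, where 0% of 44479 combinations did. At an unadjusted p under 0.05 there were 13, or 6.84%, against 4.5% of all combinations. Intervals lay above 1 in 7 combinations, against 2.34% of all, and below 1 in 6, against 2.15%.

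Peg3 had 5 of these 13 and the most uneven spread of the loci. Its bin met chromosome 12 with 98 contacts, 1.36 times the expected (1.10 to 1.66), X with 82, 1.36 (1.08 to 1.68), and chromosome 18 with 82, 1.26 (1.01 to 1.57). It met chromosome 17 with 38, 0.712 (0.504 to 0.978), and chromosome 14 with 52, 0.753 (0.563 to 0.988). The SD of its ratio over the 19 other chromosomes was 0.198, against a median of 0.118 over kept autosomal bins, and 25 of those 2231 bins had a higher SD. Its summed squared deviation from the expected counts, a Pearson chi-square of 47.7, was exceeded by 0 of them. Having been picked as the highest of 10 after the values were seen, Peg3 was given no test here.

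H19 had its highest ratio with X, 1.27 (1.00 to 1.59), and its lowest with chromosome 19, 0.786 (0.534 to 1.12). Its contacts with chromosome 1 were also above the expected count, at 159 and 1.26 (1.07 to 1.47). Kcnq1ot1, in the next bin, had its highest with chromosome 16, 1.33 (1.08 to 1.63), and its lowest with 15, 0.803 (0.603 to 1.05). These neighbours shared neither their highest nor their lowest chromosome.

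Mest had the widest range, from 1.49 (1.05 to 2.05, 38 contacts) with chromosome 19 to 0.715 (0.519 to 0.960) with chromosome 10. Snrpn ranged from 1.35 (0.995 to 1.79) with chromosome 18 to 0.652 (0.440 to 0.930) with 11. Meg3 ranged from 1.18 (0.969 to 1.43) with 13 to 0.741 (0.547 to 0.983) with X. Gnas was highest with chromosome 12, 1.23 (0.980 to 1.52), and lowest with 19, 0.741 (0.493 to 1.07). Its interval with chromosome 11, at 0.767 (0.587 to 0.985), lay below 1.

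Igf2r, Grb10 and Nnat had no interval that left out 1. Igf2r was highest with chromosome 6, 1.17 (0.955 to 1.41), and lowest with 16, 0.849 (0.630 to 1.12). Grb10 was highest with 19, 1.26 (0.941 to 1.64), and lowest with 12, 0.786 (0.600 to 1.01). Nnat was highest with 1, 1.21 (0.985 to 1.46), and lowest with 17, 0.814 (0.545 to 1.17).

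**Figure D5:**
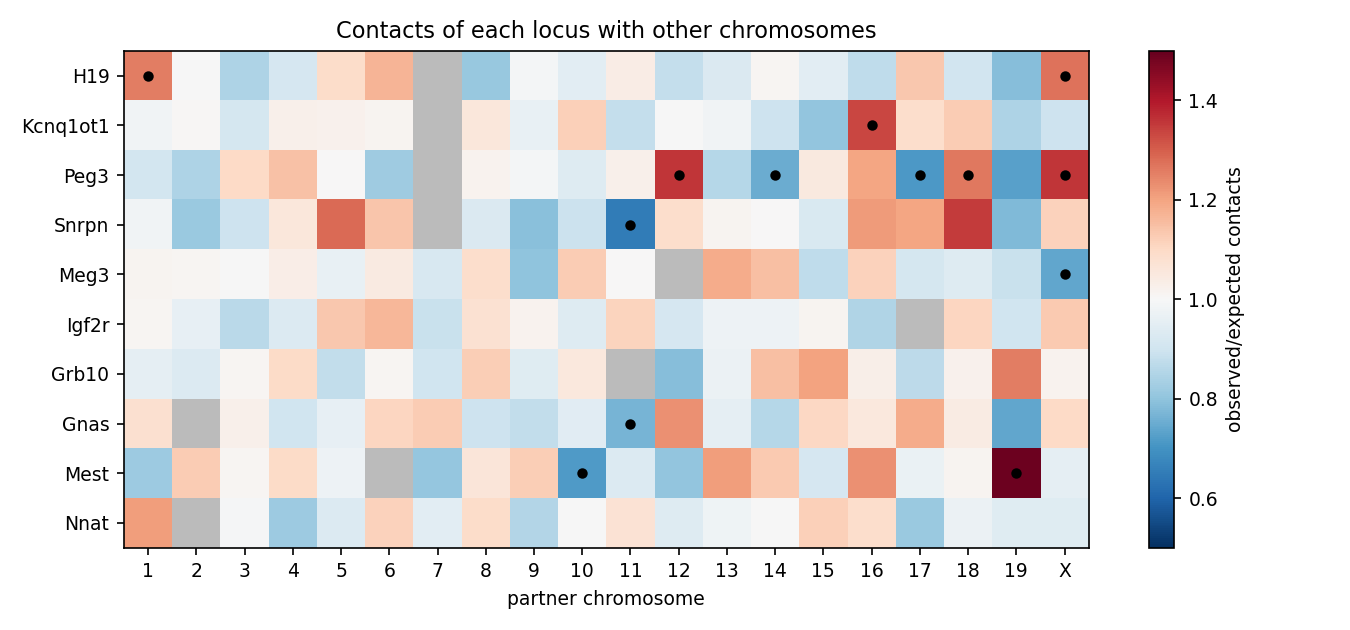
Observed/expected contacts of each imprinted locus (vertical axis) with each other chromosome (horizontal axis), with dots where the exact 95% Poisson interval leaves out 1 and grey for the locus' own chromosome. Peg3 carries 5 of the 13 dots, and none of the 190 cells passed adjustment.

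Single partner bins were then searched for each locus. By the 1-sided exact Poisson test 0 of the trans pairs of the 10 loci passed adjustment over all 2594953 pairs, of which 2 passed. At an unadjusted p under 0.05 the share ran from 1.94% at Snrpn to 3.25% at H19, against 2.76% of all pairs. Snrpn came nearest, with 8 contacts to chr6:34000001-35000000 where 0.560 was expected, a ratio of 14.3 (6.16 to 28.1). The exact test gave an unadjusted p of 1.47e-07 and an adjusted p of 0.0951, just short of the threshold. That partner was in the top 2% of kept autosomal bins by trans contacts.

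The leading partners of the other loci were scattered over 7 chromosomes. Kcnq1ot1 had 6 contacts with chr17:16000001-17000000, with an adjusted p of 0.912 in the exact test. H19 had 5 with chrX:92000001-93000000, and Peg3 had 4 with chr12:120000001-121000000. Meg3 had 6 with chr6:36000001-37000000, 2 Mb from the partner of Snrpn. Igf2r had 5 with chr11:54000001-55000000 and Grb10 had 6 with chr16:60000001-61000000. Gnas had 6 with chr17:78000001-79000000, Mest had 5 with chr12:13000001-14000000 and Nnat had 4 with chr18:44000001-45000000. All of these but that of Kcnq1ot1 had an adjusted p of 1 in the exact test.

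H19, Kcnq1ot1 and Gnas lie near the high-coordinate ends of their chromosomes, 2.52, 1.52 and 6.75 Mb from the end. Contact with the last 10 Mb of other chromosomes was 1.03 (0.863 to 1.21) at H19, 1.07 (0.907 to 1.25) at Kcnq1ot1 and 1.16 (0.982 to 1.36) at Gnas. Kept autosomal bins near such an end had 1.07 (1.05 to 1.08). With the outer 5 Mb alone Gnas had 1.26 (1.00 to 1.57), the only interval of the members to leave out 1 in that form. The share of all kept bins with such an interval was not computed at 5 Mb. At 10 Mb 0 of 10 loci had an interval above or below 1 for either end. Over kept bins 3.12% lay above and 2.9% below for the high-coordinate ends, and 3.46% above and 2.82% below for the low-coordinate ends. Peg3 lies toward the centromere of chromosome 7, at low coordinates, and had 1.17 (0.947 to 1.43) with the first 10 Mb of others, against 1.10 (1.08 to 1.12) for kept autosomal bins near that end. By the exact Poisson test 0 loci passed adjustment for either end, as did 0% of kept bins, and 0 had an unadjusted p under 0.05.

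A score taken as the leading eigenvector of correlated trans profiles divides the kept bins into classes by which bins they share contacts with. It is a range without an outside reference here, and gives no active or inactive side. H19, Kcnq1ot1, Mest and Nnat fell in the class that holds 41.6% of kept bins, and Peg3, Snrpn, Meg3, Igf2r, Grb10 and Gnas in the other. Mest and Nnat were at the 90.9th and 90.0th percentiles of the score. Peg3 was at the 0.427th and Gnas at the 3.59th, near the opposite extreme, while Kcnq1ot1 at the 60.5th and Meg3 at the 57.5th lay close to the boundary on either side. Both classes thus held maternally and paternally expressed loci.

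Profile likeness was measured as Pearson's r of trans contacts in windows of 10 Mb. The best r of a locus ranged from 0.252 for Gnas with chr18:51000001-52000000 to 0.643 for H19 with chr3:99000001-100000000, over 235 to 254 windows that share this map and its depth. Without windows of fewer than 5 kept bins, the r of H19 was 0.0183 and that of Peg3 with chr14:74000001-75000000 went from 0.590 to 0.0823. It moved for 8 of the 10 loci when these windows were left out. The values that moved least were those of Mest with chr1:45000001-46000000, 0.317 and 0.288, and Igf2r with chr19:5000001-6000000, 0.311 and 0.281. Among the loci themselves r ran from -0.152 for H19 and Meg3 to 0.177 for Grb10 and Nnat, with a median of -0.0212 over 38 pairs. Correlations of this size in sparse counts are given as descriptions.

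A further 11 imprinted loci, placed on mm9 from textbook positions, were Plagl1, Rasgrf1, Peg10, Nap1l5, Slc38a4, Zrsr1, Inpp5f, Peg13, Mcts2, Ndn and Sfmbt2. Their same-bin contacts summed to 2.35 (1.13 to 4.32), beside 6.52 for the members, with overlapping intervals, and the interval includes the autosomal 3.26. Rasgrf1, an exchange factor for Ras proteins, was the 1 of 11 past the adjusted threshold, with 4 contacts, a ratio of 11.8 (3.20 to 30.1) and an adjusted p of 0.0185 in the exact Poisson test, where 5.81% of all kept bins passed. Against the autosomal mean Rasgrf1 had 3.61 (0.983 to 9.23), with an adjusted p of 1 in the exact test. Adjacent contacts summed to 1.79 (1.19 to 2.59), and to 1.36 (0.819 to 2.12) with the bin filter at 80%. There Nap1l5 was the 1 past the threshold, with 7 contacts, a ratio of 6.02 (2.42 to 12.4) and an adjusted p of 0.0263 in the exact test, where 1.76% of all kept bins passed. Against the autosomal mean Nap1l5 had 4.09 (1.64 to 8.43) and an adjusted p of 0.246 in the exact test, so that call too was lost. The lowest adjacent value was that of Inpp5f, with 0 contacts and an upper limit of 6.76. Ndn, in the Prader-Willi region with Snrpn, had 0 same-bin contacts, and its bin and that of Snrpn, 2 Mb apart, shared 2 contacts against 0.344 expected.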

How the data were processed

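Hi-C contacts of fibroblasts were analysed from 1 pooled map. The authors deposited a pooled, balanced signal for every listed pair of bins, each 1 Mb wide, as the table's name states. HiC-Pro 2.7.8, bedtools and build mm9 appear, without roles, per the submitters' processing notes. The aligner and read filters, and which libraries were pooled, were not given in the sources used here.

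Dividing out a factor for either bin left whole contacts, within 0.01, for 1365118 of 1365118 listed pairs. Counts were preferred because a trans pair held 0.684 contacts on average. Bins under 50% of the median number of trans partners were left out. Factors were fitted to trans totals, and same-bin expectation was 50% of the squared factor. Exact Poisson tests were adjusted by Benjamini-Hochberg over all kept bins or pairs, at 0.05. With 1 map no test compares samples, and intervals cover counting error only.

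The rule for the members uses positions alone, but the members, lists and tests were picked with earlier results of these data known. Named were all members, their extreme chromosomes, lowest-p trans bin and most like profile, and the extreme further loci. The 4 loci of chromosome 7 were summed after their values were seen. In place of random bins of like coverage, all kept bins and those within 10% in trans contacts were used. Alternatives were the balanced signal, other filters, other expectations, widened loci and each locus left out. Steps were tested on simulated data. Software was scipy 1.17.1, numpy 2.4.6 and pandas 2.3.3 under Python 3.11.15. Coordinates are 1-based.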

Additional observations from a re-analysis of the deposited data

How the results depend on the processing

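Of 196 values recomputed, 173 were labelled the same, 20 moved, 2 lost the threshold, 1 gained it and 0 reversed. The same meant that a ratio stayed within the main interval, a test kept its side of the threshold, or another value moved little. A reversal needed a main interval that left out 1, or a test past the threshold. Some values labelled the same therefore changed side of 1, such as Peg3 with low-coordinate ends, 1.17 and, in the outer 5 Mb, 0.979. The summed same-bin ratio of 6.52 was 3.26 with the full product of bin factors, which doubles the expectation by construction, and 2.0 (1.21 to 3.13) against the autosomal mean, a setting added after the data were seen. It ranged from 3.51 without H19 to 7.58 without Meg3. With the full product 1 locus, H19, passed the threshold for same-bin contact, and Peg3 had 5.65 with an adjusted p of 0.247 in the exact Poisson test. Against the autosomal mean 1 locus, H19, had an interval above 1 and 1 passed. For adjacent contact, 0 loci had an interval above 1 with the filter at 80%, under which Peg3 lost its only neighbour, and 1 locus, Peg3, passed without a filter. The summed adjacent ratio ranged from 1.86 without Peg3 to 2.42 without Nnat, and that among loci from 0.745 without Igf2r to 1.05 without Grb10. Against the autosomal mean the summed adjacent ratio was 1.49 (0.923 to 2.28), an interval that includes 1. With the outer 5 Mb, 1 interval for chromosome ends left out 1, where 0 did at 10 Mb, and the cause was not tested. The share of all kept bins was taken at 10 Mb only. Under the 80% filter 7 of 10 loci remained. Profile likeness moved for 8 of 10 loci when thin windows were left out. No paired analysis was possible because the deposited map is pooled over the replicates. Depth was under 1 contact per trans pair on average.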
